A study of Caenorhabditis elegans with 5 samples.

Results

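Whole young adult Caenorhabditis elegans that had been exposed for 24 h to a mix of benzene, toluene and formaldehyde (BTF mix) were compared with animals that were not exposed. The pair consists of the 2 arrays, of 5 in the series, whose titles name the BTF mix exposure and no exposure. All 17118 genes with a probe set of their own were described, with no filter on level. Where a gene had several probe sets, the one of highest average level on the 5 arrays stood for it.

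Both groups were wild-type hermaphrodites, aged 3 days, from age-synchronised cultures raised on agar with Escherichia coli OP50. Exposure took place at 20 °C in a potassium and sodium chloride medium without food. The concentrations of the 3 compounds, the incubation of the unexposed animals and the number of animals per extract were not stated. The other 3 arrays hold animals exposed to formaldehyde, benzene or toluene alone, and their values are set beside those of the pair where useful. They share the unexposed array, so they are no separate check of it.

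Benzene and toluene are aromatic hydrocarbons that animals oxidise with cytochrome P450 enzymes. UDP-glucuronosyltransferases and glutathione S-transferases then couple the products to sugar or glutathione, and ABC transporters export them. Formaldehyde is a reactive aldehyde that binds protein and DNA, and cells also make it in folate-dependent metabolism and oxidise it through a glutathione adduct. In C. elegans much of this enzyme set is made in the intestine, under nuclear hormone receptors and stress regulators such as SKN-1 and HSF-1.

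With 1 array per group there is no replicate, so no test, error or p-value can be given, and "higher" and "lower" describe these 2 arrays. Differences are BTF mix minus not exposed in log2(intensity + 16), on which 1 unit is 2-fold. The added 16 makes differences of dim genes smaller than the ratio of their intensities. The median intensity of all probe sets was 82.3 in the BTF mix array and 84.8 in the not exposed array. The ratio of 3′ to 5′ signal, a measure of RNA length, was 3.87 in the mix and 4.94 without exposure for actin, and 3.40 and 3.03 for Gapdh. It was 35.2 and 31.3 for ubiquitin, 21.8 and 19.5 for catalase, and 0.352 and 0.349 for the dim gly14. Directions refer to each array's own overall level. The 24 probe sets for poly-A RNA spiked into the samples lay 0.39 to 0.94 higher in the mix array, and scaling on them gave a median of -0.60 over all genes. On that scale 173 genes were 2-fold higher and 1248 lower. Of 56 gene lists described, 27 had a median above 0, and 22 of these medians fell below 0 on that scale. The exceptions were the major sperm proteins, the small sperm families, the body-shape collagens, the intestinal identity genes and the infection response genes.

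Markers fixed for the label of adult hermaphrodites were strong on both arrays. The yolk protein gene vit-5 had an intensity of 20455 in the mix and 18453 without exposure, and vit-2 had 7366 and 8865. The 8 oocyte and eggshell markers lay within 2-fold of each other on the 2 arrays, with a median difference of -0.08.

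At 2-fold, 455 of 17118 genes (2.66%) were higher in the BTF mix array and 244 (1.43%) were lower, 699 (4.08%) in either direction, against a median difference over all genes of -0.01. At 4-fold, 81 were higher and 31 lower, and at 8-fold 4 were higher and 9 lower. In 15473 genes (90.4%) the arrays lay within 1.5-fold. Exactly equal intensities on both arrays were listed for 1548 genes (9.04%), for a reason not given in the sources used here. Of 3424 genes with a level up to 24.6, 0 were 2-fold away, and the 3423 genes between 161 and 709 held 200 higher and 110 lower. The plot of level on both arrays shows the higher genes spread over the whole range above the dimmest genes and a smaller group far below the diagonal.

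**Figure D1:**
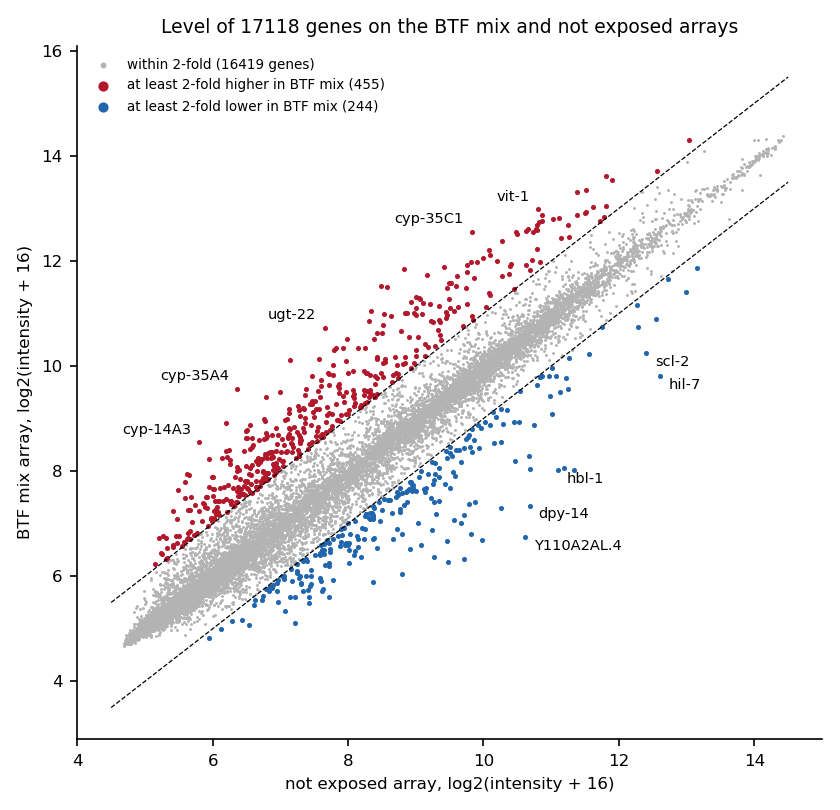
Level of each gene in the BTF mix array (vertical axis) against the not exposed array (horizontal axis), both as log2(intensity + 16), 1 array per group. Dashed lines mark 2-fold, with 455 genes above (red) and 244 below (blue), and names mark some of the genes far from the diagonal.

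Among the 30 genes furthest above the unexposed array, enzymes of foreign compound metabolism were the most frequent kind. These were the cytochrome P450s cyp-35A4, cyp-35A3, cyp-14A3, cyp-35C1 and cyp-35A2, the UDP-glucuronosyltransferases ugt-22 and ugt-41, the glutathione S-transferase gst-26 and the short-chain dehydrogenases dhs-25 and dhs-23. Intensities of cyp-35A2 were 1847 in the mix, 1691 after formaldehyde, 874 after benzene, 458 after toluene and 302 without exposure (difference 2.55). For dhs-25 they were 1453 in the mix, 1315 after formaldehyde, 571 after benzene, 281 after toluene and 238 without exposure (2.53). Both genes were highest in the mix and lowest without exposure, with benzene and toluene in between.

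Other genes of the 30 have roles in nutrient and redox metabolism. hrg-7, which encodes an aspartic protease-like protein that takes part in heme signalling, had 1279.6 in the mix and 210.4 without exposure (2.52). msra-1, a methionine sulfoxide reductase gene, had 3778 and 665 (2.48), and the folate transporter gene folt-2 had 1112 and 174 (2.57). The groundhog genes grd-3 (2107 and 307, 2.72) and grd-5 (1254 and 205, 2.52) encode secreted hedgehog-related proteins. The remaining genes with the largest positive differences included F46F2.3 (2.499), T05E12.6 (2.47), F28H7.3 (2.42), cpg-9 (2.34), C05D12.3 (2.33) and the cytochrome c gene cyc-2.2 (2.28).

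The 30 genes furthest below the unexposed array, with differences between -2.11 and -3.88, included genes of the epidermis and its extracellular matrix. dpy-14 and dpy-17 encode collagens of the body cuticle, mlt-11 a protease inhibitor needed for moulting, noah-1 a zona pellucida domain protein of the embryonic and larval surface, lpr-3 a lipocalin of that matrix and acn-1 a protein related to angiotensin-converting enzyme that is needed for moulting. Intensities of dpy-14 were 147 in the mix, 148 after formaldehyde, 1174 after benzene, 1626 after toluene and 1635 without exposure (-3.34). Those of acn-1 were 80.2 in the mix, 101 after formaldehyde, 338 after benzene, 429 after toluene and 526 without exposure (-2.49). Both exposures that contain formaldehyde were low for these genes, and the toluene array was close to the unexposed array for dpy-14. In whole animals, fewer cells of a type and less RNA per cell cannot be told apart.

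Other low genes were the hatching protease gene hch-1 (95.6 in the mix and 881 without exposure, -3.01), the linker histone-like hil-7 (879 and 6253, -2.81) and the zinc finger gene syd-9 (127 and 820.3, -2.54). The cathepsin B-like protease gene cpr-2 had 102 and 588 (-2.36), and the neuropeptide-like gene nlp-39 had 32.8 and 195 (-2.11). Genes known only by sequence names made up much of the rest, among them T14B1.1 (-2.65), F35D2.3 (-2.49), F07H5.13 (-2.45), F14B4.1 (-2.395) and T02E9.5 (-2.27). F07H5.13 and noah-1 were lower in the mix than in the unexposed array, while their toluene values of 1229 and 1983 lay above the unexposed 919 and 1609.

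**Figure D2:**
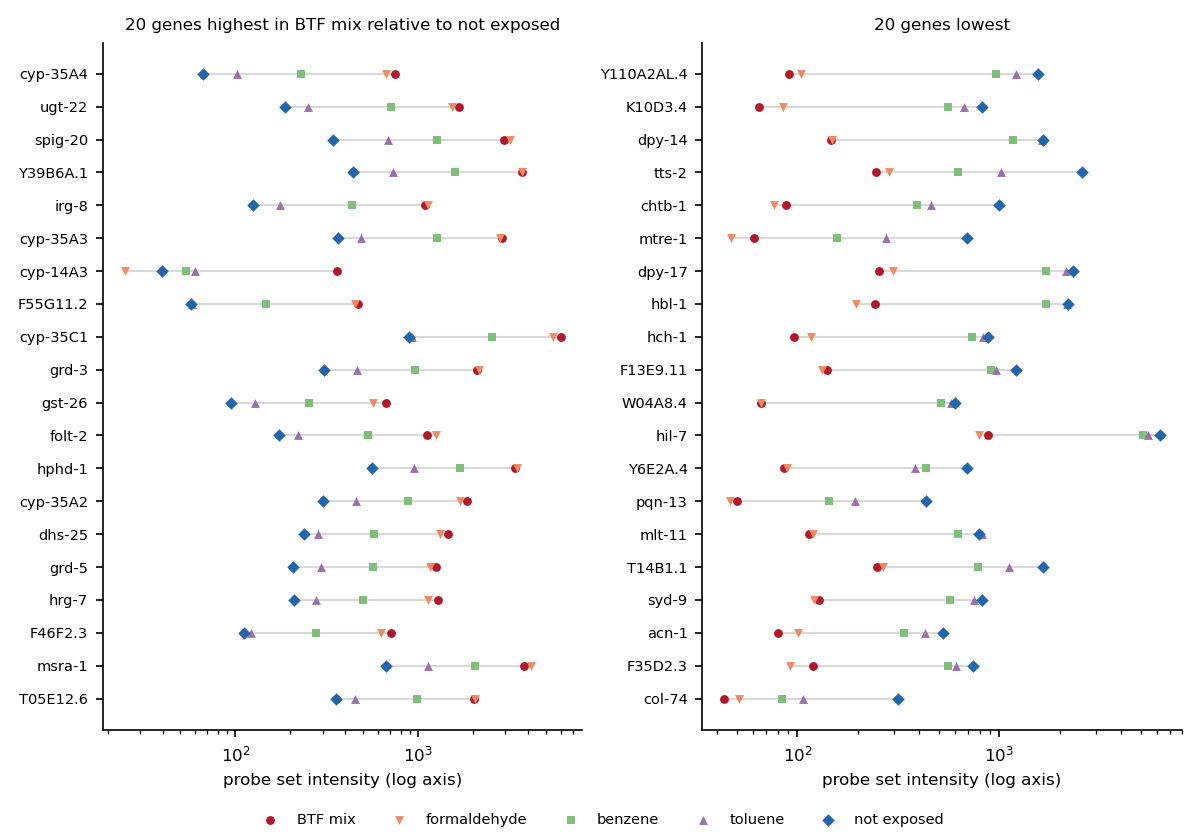
Probe set intensity (log axis) of the 20 genes highest (left) and the 20 lowest (right) in the BTF mix array relative to the not exposed array, with 1 point for each of the 5 arrays. In every gene shown except cyp-14A3 benzene lies between the 2 formaldehyde-containing exposures and the unexposed array, and cyp-14A3 has 359 in the mix and at most 60.2 elsewhere.

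Gene families of foreign compound metabolism were split: a minority of members was far higher and the median member stood near 0. The cytochrome P450 family of 73 genes had 8 members 2-fold above (11%) and 2 below (2.74%), against 2.66% and 1.43% of all genes, with a median difference of 0.00. cyp-35A5 had 185 in the mix and 47.9 without exposure (1.66). On the low side stood cyp-37B1 with 221 and 633 (-1.45) and cyp-35B1 with 39.2 and 99.4 (-1.06). The cyp-35 genes lay on both sides of the unexposed array.

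UDP-glucuronosyltransferases had 12 of 64 members 2-fold higher (18.8%) and 5 lower (7.81%), against 2.66% and 1.43% of all genes. Both counts were the most of any conjugating family examined, and the median was 0.08. ugt-63 had 205 in the mix, 65.4 after formaldehyde, 47.2 after benzene, 27.3 after toluene and 32.2 without exposure (2.198). ugt-46 had 916 in the mix, 853 after formaldehyde, 429 after benzene, 253 after toluene and 192 without exposure (2.17). For ugt-63 the mix stood well above the 3 single compounds, while ugt-46 was nearly as high after formaldehyde. ugt-62 stood at 717 in the mix and 171 without exposure (1.97) and ugt-21 at 317 and 57.6 (2.18). The lowest members were ugt-4 (74.2 and 241, -1.51) and ugt-50 (210.2 and 602, -1.45).

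Glutathione S-transferases had 7 of 45 members higher (15.6%) and 1 lower (2.22%), against 2.66% and 1.43% of all genes, and a median of 0.102. gst-36 had 1281 in the mix and 269 without exposure (2.19), gst-10 632 and 162 (1.87), gst-5 606 and 158 (1.84), and the omega class gsto-1 149 and 42.7 (1.49). The lower member was gst-20, with 252 and 634 (-1.28). Short-chain dehydrogenases had 3 of 30 higher (10%), the third being dhs-28 (1.05), an enzyme of peroxisomal beta-oxidation. Of 5 flavin monooxygenases, fmo-2 was 2.11 above and fmo-1 stood at -0.76, within 2-fold.

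Among exporters, 3 of 49 ABC transporter genes were higher (6.12%, against 2.66% of all genes) and 0 lower. They were the peroxisomal-type pmp-5 (1565 in the mix and 345 without exposure, 2.13) and the P-glycoproteins pgp-14 (565 and 146, 1.84) and pgp-1 (135 and 26.7, 1.82). Of 254 nuclear hormone receptor genes, which include regulators of these enzymes, 1 was 2-fold higher (0.394%) and 3 were lower (1.18%), against 2.66% and 1.43% of all genes. The higher receptor was nhr-114, known for protecting the animals from a diet-dependent toxic effect of tryptophan, with 287 in the mix, 253 after formaldehyde, 136 after benzene, 87.7 after toluene and 85.8 without exposure (1.57). The lower receptors were nhr-25 (-1.09), nhr-144 (-1.08) and nhr-18 (-1.04).

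Genes that act on aldehydes and alcohols were mostly near the unexposed level. adh-5, the glutathione-dependent formaldehyde dehydrogenase, had 442 in the mix, 409 after formaldehyde, 407 after benzene, 368 after toluene and 377 without exposure (0.22). Of 16 members, the aldehyde dehydrogenase gene alh-5 was 2-fold higher (218 in the mix and 92.99 without exposure, 1.105) and none was lower at 2-fold. adh-1 came nearest to 2-fold on the low side, with 3549 and 7003 (-0.98).

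The propionate shunt was higher in the mix while the vitamin B12-dependent route was not. The shunt breaks propionate down when the B12-dependent enzymes are short of their cofactor, and its first steps are catalysed by the products of acdh-1, ech-6, hach-1 and hphd-1. hphd-1 had 3389 in the mix, 3462 after formaldehyde, 1698 after benzene, 953 after toluene and 561 without exposure (2.56). hach-1 had 2185 in the mix and 714 without exposure (1.59), acdh-1 had 8378 and 3141 (1.41), and ech-6 had 5502 and 2254 (1.28). These 4 genes were the 4 of 10 members 2-fold higher (40%, against 2.66% of all genes). alh-8, which catalyses the last step, stood at -0.03. In the B12-dependent route, the propionyl-CoA carboxylase genes pcca-1 and pccb-1 stood at 0.05 and 0.04, the epimerase gene mce-1 at 0.41 and the mutase gene mmcm-1 at 0.14. With poly-A scaling the shunt genes stayed above the unexposed array (hphd-1 1.97, hach-1 1.004, acdh-1 0.82, ech-6 0.69), acdh-1 and ech-6 no longer 2-fold, and those 4 genes lay below it.

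Of the 21 folate and one-carbon genes measured, 2 were 2-fold higher (9.52%, against 2.66% of all genes) and 0 lower. The median was 0.25 (-0.34 with poly-A scaling). Besides folt-2, the purine synthesis gene atic-1 was higher (524 in the mix and 236 without exposure, 1.102). sams-5 and sams-1, genes of S-adenosylmethionine synthesis, stood just inside 2-fold at 0.997 and 0.98. Both other probe sets of sams-1 were past it, at 1.67 and 1.61. The count of higher genes in the list was 5 with median centring and 4 with a pseudocount of 1. The related transporter gene folt-3 stood at -0.19.

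Lipid genes differed by enzyme. Of 8 elongase genes, 3 were 2-fold higher (37.5%, against 2.66% of all genes). These were elo-5 (3243 in the mix and 910.4 without exposure, 1.81) and elo-6 (2683 and 1069, 1.31), which make branched-chain fatty acids, and elo-2 (921 and 296, 1.59), which extends palmitate. With poly-A scaling 1 elongase was higher and the list median moved from 0.26 to -0.33. With marked probe sets left out 1 was higher. The acyl-CoA synthetase gene acs-1, which acts with elo-5 and elo-6 in that pathway, had 1854 in the mix, 1646 after formaldehyde, 933 after benzene, 555 after toluene and 634 without exposure (1.52). The elongase elo-1 of polyunsaturated fatty acids stood at -0.03. Among 7 desaturases, the delta-9 enzymes went apart: fat-7 had 2111 and 741 (1.49), fat-6 4807 and 3123 (0.62) and fat-5 179 and 406 (-1.11). Lysosomal lipase genes lipl-2 (78.6 and 267, -1.58) and lipl-4 (52.9 and 136, -1.15) were lower.

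Among the protein folding and DNA repair lists, the heat shock lists held the genes past 2-fold. Of 12 small heat shock genes, 3 were higher (25%) and 1 lower (8.33%), against 2.66% and 1.43% of all genes. hsp-16.2 had 3323 in the mix, 3788 after formaldehyde, 2296 after benzene, 1604 after toluene and 1227 without exposure (1.43). hsp-17 had 1488 in the mix and 460.0 without exposure (1.66), and hsp-16.20 had 63.6 and 146 (-1.03). The inducible hsp-70 had 4061 and 1159.6 (1.79), while the constitutive hsp-1 and hsp-90 and the regulator hsf-1 stood at 0.03, -0.01 and -0.05. Of the 15 ER and 9 mitochondrial unfolded protein response genes and the 25 DNA damage and repair genes measured, 0 were 2-fold away in either direction. Their medians were 0.00, -0.05 and -0.04. Of all genes 4.08% were 2-fold away, so lists this short would hold few such genes at that share.

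In the oxidant and metal lists single genes stood apart. msra-1 was the 1 of 26 antioxidant genes 2-fold away (3.85%, against 4.08% of all genes in either direction). gcs-1, a glutathione synthesis gene under SKN-1, stood at -0.38. In the metal list the gene cdr-4 was higher (1021 in the mix and 204 without exposure, 2.23). The ferritin gene ftn-1 (675 and 2012, -1.55) and the metallothionein gene mtl-1 (886 and 1840.0, -1.04) were lower. The second metallothionein gene, mtl-2, stood on the other side at 0.78, and at 1.18 and 0.93 on its other probe sets.

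**Figure D3:**
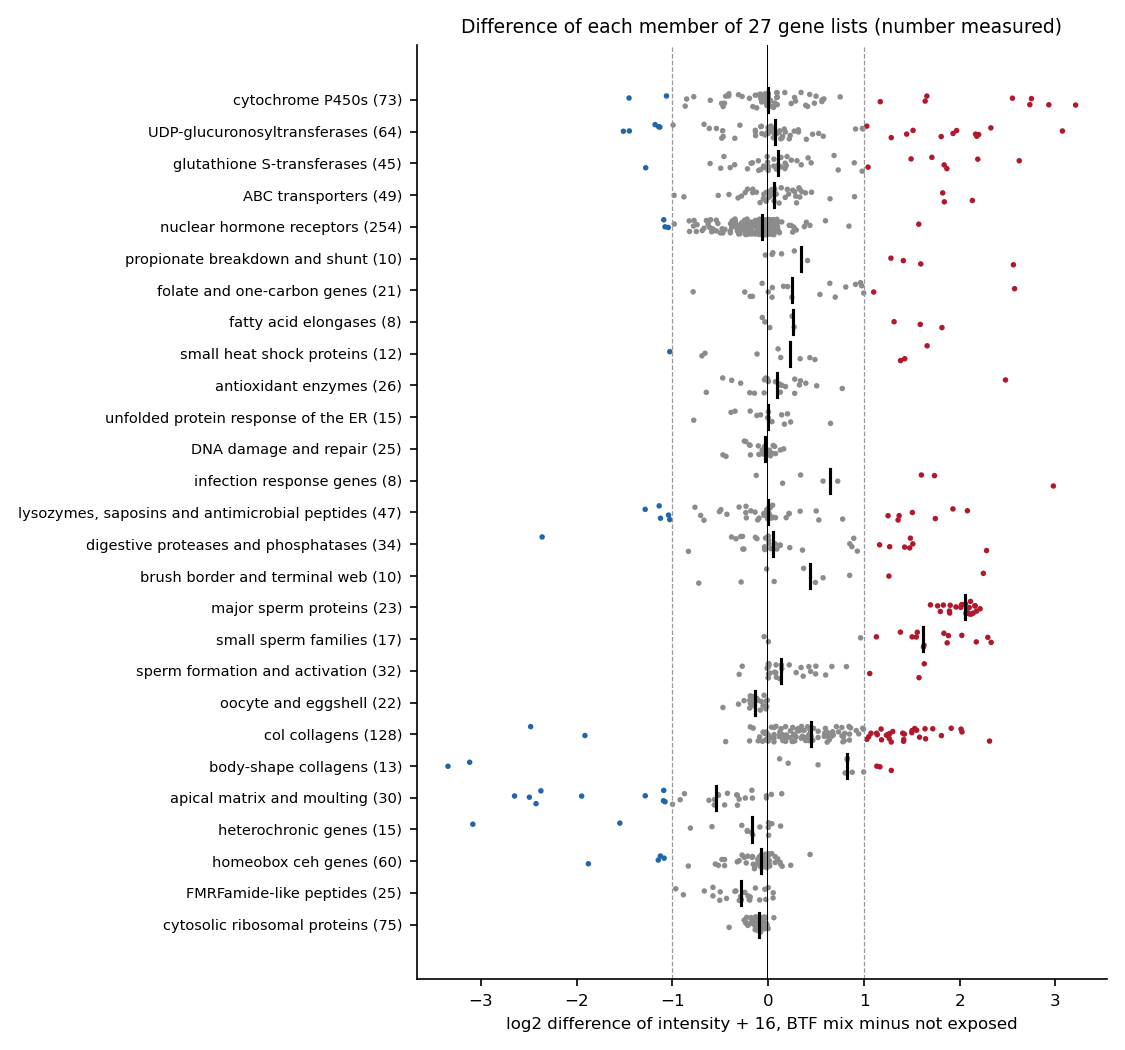
Difference of each member (point) of 27 gene lists, BTF mix minus not exposed in log2(intensity + 16), with the list median as a black bar and dashed lines at 2-fold. Major sperm proteins lie wholly above 2-fold around a median of 2.06, families of foreign compound enzymes have medians near 0 with single members far above, and apical matrix genes reach down to -2.65.

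Single genes of the intestinal surface and of digestion were higher, while the median digestive gene stood near 0. act-5, the actin of the microvilli, had 2484 in the mix, 2717 after formaldehyde, 1325 after benzene, 636 after toluene and 511 without exposure (2.25), and the acid phosphatase gene pho-1 had 227 in the mix, 206 after formaldehyde, 79.2 after benzene, 31.4 after toluene and 34.1 without exposure (2.28). The peptide transporter gene pept-1 stood at 484 in the mix and 214 without exposure (1.12), and the intermediate filament gene ifc-1 at 181 and 66.04 (1.26). Of 10 brush border and terminal web genes 2 were higher (20%), with a median of 0.43, and -0.16 with poly-A scaling. Of 10 intestinal identity genes 3 were higher (30%), 8 lay above the unexposed array and 1 below it. Their median was 0.68, and 0.09 with poly-A scaling. On unmarked probe sets 1 of 4 was higher, with a median of 0.37. elt-2 and elt-7, GATA factors that specify the intestine, were at the low end of that list, at 0.00 and -0.41. Of 34 digestive protease and phosphatase genes 7 were higher (20.6%) and 1, cpr-2, was lower (2.94%), against 2.66% and 1.43% of all genes. The median was 0.05. With poly-A scaling 1 was higher, and 4 were when marked probe sets were left out. The cathepsin B-like genes cpr-5 (1.51), cpr-4 (1.48) and cpr-9 (1.42) and the aspartic protease gene asp-13 (1.27) were among the higher.

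Defence genes lay on both sides of the unexposed array. Of 8 infection response genes 3 were higher (37.5%, against 2.66% of all genes): irg-8, irg-4 (2833 in the mix and 839 without exposure, 1.74) and irg-5 (919 and 293, 1.600). The lysozyme, saposin and antimicrobial peptide genes had 7 of 47 higher (14.9%) and 5 lower (10.6%). The lysozyme genes ilys-5 (10174 and 2659.9, 1.93) and lys-4 (3806 and 1330.0, 1.51) and the saposin-like spp-23 (679 and 148, 2.08) were higher. The saposin-like spp-1 (3733 and 9118, -1.28) and spp-8 (786 and 1749, -1.14) were lower. Of 220 C-type lectin genes 6 were higher (2.73%) and 6 lower (2.73%), against 2.66% and 1.43% of all genes.

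Sperm transcripts were higher as families, while most separate genes of sperm formation and activation stayed within 2-fold. All 23 measured major sperm protein genes, which encode the cytoskeletal protein of nematode sperm, were 2-fold higher. Their differences lay between 1.69 and 2.21, but all rest on probe sets whose names mark binding to more than 1 similar transcript, so they are not separate measurements. The small sperm families (msd, ssp, ssq, ssr and sss) had 14 of 17 higher with a median of 1.62. On unmarked probe sets it was 7 of 9, with a median of 1.56. These counts use the chosen probe sets, and other probe sets did not all match them. Unmarked other probe sets of ssq-1 and ssq-2 stood at -0.097 and -0.104, against 1.62 and 2.17 on the chosen ones. Other probe sets of ssq-3, both marked, stood at 2.09 and -0.253. ssp-34, on an unmarked probe set, had 576 in the mix, 686 after formaldehyde, 319 after benzene, 230.3 after toluene and 145 without exposure (1.88). ssp-16 had 392 in the mix, 454 after formaldehyde, 211 after benzene, 184 after toluene and 95.6 without exposure (1.87). Both genes were highest after formaldehyde, then in the mix, after benzene, after toluene and without exposure.

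Among 32 genes of sperm formation and activation, 3 were higher: the sperm phosphatase genes gsp-3 (441 in the mix and 132 without exposure, 1.63) and gsp-4 (401 and 124, 1.58) and spe-18 (1.06). This is a share of 9.38%, against 2.66% of all genes, and 25 genes lay above the unexposed array and 3 below it. The list median was 0.13, and 0 were 2-fold higher when marked probe sets were left out. It was 0.35 for the 18 genes from the 40th percentile of mean level, 0.01 for the 7 from the 60th, and -0.46 with poly-A scaling. spe-44, a transcription factor of sperm formation, was the lowest of them at -0.304. Many of the spe genes were dim, and spe-9 had 50.02 and 50.02.

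The rest of the germ line showed no such difference. All 22 oocyte and eggshell genes lay below the unexposed array, between -0.47 and -0.01, and 0 were 2-fold away. The 21 germ line and meiosis genes had a median of 0.00 and the 18 replication and cell cycle genes of -0.06, with 0 at 2-fold in either list. Of all genes 4.08% were 2-fold away in either direction, so lists this short would hold few at that share. Among vitellogenins, vit-1 had 8124 in the mix, 7578 after formaldehyde, 5281 after benzene, 1966 after toluene and 1775 without exposure (2.18), while the other 4 stayed between -0.27 and 0.296.

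Cuticle genes split into a higher and a lower set. Of 128 col genes, 30 were 2-fold higher (23.4%) and 2 lower (1.56%), against 2.66% and 1.43% of all genes, and 109 lay above the unexposed array. Their median was 0.45, and -0.14 with poly-A scaling, where 8 were higher, so the direction of the family depends on the scaling. On unmarked probe sets 13 of 78 were higher, with a median of 0.35. col-98 had 3503 in the mix and 849.6 without exposure (2.02), col-143 4423 and 1083 (2.01) and col-142 2257 and 633 (1.81). The lower ones were col-74, with 43.3 in the mix, 51.3 after formaldehyde, 83.7 after benzene, 107 after toluene and 315 without exposure (-2.48), and col-165, with 157 and 634 (-1.91).

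Among 13 collagen genes known for body shape, 11 lay above the unexposed array, dpy-5 the furthest (440.4 in the mix and 171 without exposure, 1.29), while dpy-14 and dpy-17 lay more than 8-fold below. The 5 measured collagen genes of the annular furrows, which are made together in each moult, stayed between -0.22 and 0.401 on their chosen probe sets. Another probe set of dpy-2, marked s, had 62.0 in the mix and 132 without exposure (-0.92), against 0.17 on the chosen one. The furrow list median was 0.17, and -0.16 with the mean of probe sets. sqt-3 depended on the probe set. Its chosen one, marked x, stood at 0.12, while a second, unmarked one had 684 in the mix and 3125 without exposure (-2.17). With the mean of probe sets, or without s and x probe sets, 3 body-shape collagens were 2-fold lower.

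Genes of the apical extracellular matrix and of moulting were lower as a group. Of 30, 9 were 2-fold lower (30%, against 1.43% of all genes), 0 were higher, and 28 lay below the unexposed array. The median was -0.54, and -0.62 on unmarked probe sets. The count of lower genes was 4 with the mean of probe sets, 5 with a pseudocount of 64 and 19 with poly-A scaling. noah-1 had 298 in the mix, 338 after formaldehyde, 1553 after benzene, 1983 after toluene and 1609 without exposure (-2.37), and the fibrillin-like gene fbn-1 had 89.1 in the mix, 89.6 after formaldehyde, 375 after benzene, 458 after toluene and 389.7 without exposure (-1.95). ptr-4, a patched-related gene needed for moulting, had 48.1 in the mix and 140.0 without exposure (-1.28), and dex-1, another zona pellucida domain gene, 30.7 and 82.6 (-1.08). The receptor gene nhr-25, a regulator of moulting, stood at -1.09, and the cuticle-linking oxidase gene bli-3 at 0.03.

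**Figure D4:**
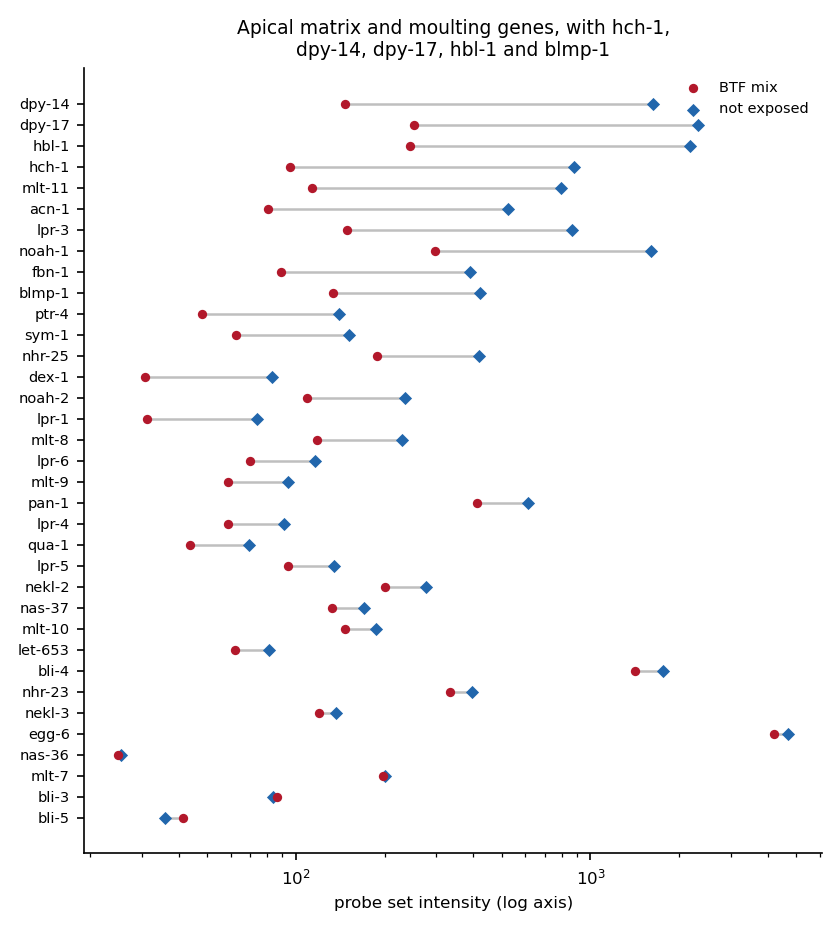
Probe set intensity (log axis) of the 30 apical matrix and moulting genes and of hch-1, dpy-14, dpy-17, hbl-1 and blmp-1 in the BTF mix array (circles) and the not exposed array (diamonds), ordered by difference. The mix lies to the left for all except bli-3 and bli-5.

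Developmental regulators of the epidermis and pharynx were lower with few of their list partners. hbl-1, a zinc finger gene that controls the timing of larval cell fates and is also made in the embryonic epidermis, had 243 in the mix, 195 after formaldehyde, 1696 after benzene, 2163 after toluene and 2184 without exposure (-3.08). blmp-1, another zinc finger gene of developmental timing, had 133 in the mix, 121 after formaldehyde, 309 after benzene, 373 after toluene and 421 without exposure (-1.55). The other 13 of 15 heterochronic genes stayed within 2-fold on their chosen probe sets. For alg-1 the chosen probe set stood at 0.13. Another probe set of alg-1 had 126 in the mix and 317 without exposure (-1.23), and one more stood at -0.006. Of 60 homeobox ceh genes 4 were lower (6.67%, against 1.43% of all genes) and 0 higher: ceh-22 of pharyngeal muscle (37.8 in the mix and 182 without exposure, -1.88), the Pbx-type ceh-20 (310.4 and 707, -1.15) and the Six-type ceh-32 (93.8 and 224, -1.13) and ceh-34 (129 and 291, -1.09). With the mean of probe sets, or a pseudocount of 64, 2 were lower, and the second probe sets of ceh-22, ceh-20 and ceh-32 stood at -0.62, -0.42 and -0.31. Of 25 early embryonic regulators, the GATA gene elt-6 was lower (196 and 483, -1.23) and the rest stayed within 2-fold.

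Markers of embryos, which adult hermaphrodites carry in the uterus, were also measured. Of 6 measured markers 2, hch-1 and noah-1, were 2-fold lower, and end-1, end-3, pha-4 and elt-1 stood at 0.15, -0.15, -0.25 and -0.16. Their summed intensity was 871 in the mix and 2997 without exposure, and hch-1 and noah-1 were its 2 members past 2-fold. Epidermal markers summed to 19563 and 19022, with 0 of 6 at 2-fold. Most of that sum was the marked sqt-3 probe set (15729 and 14482), and with the mean of probe sets, or without s and x probe sets, 1 epidermal marker was 2-fold lower. The part of embryos or larvae in these samples was not tested.

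The low genes rest on probe sets that other probe sets of the same gene match only in part. Of the 244 lower genes, 114 had further probe sets, and for 88 of these no other probe set was 2-fold lower, although for 103 all others lay below the unexposed array. The other probe sets were dimmer, with a median of 91.3 in the unexposed array against 491 for the chosen ones. Of all 140 other probe sets 31 were 2-fold lower. Of the 63 that reached 100 on either array, 30 were 2-fold lower and 62 lay below the unexposed array. A probe set can pass that cut through the array where it is higher alone, so the cut favours the called direction and is no separate support. For hbl-1 the second probe set had 39.2 in the mix and 53.4 without exposure (-0.33), and for noah-1 it had 76.7 and 260.4 (-1.58). Other probe sets of blmp-1, fbn-1, nhr-25, spp-1 and ugt-50 stood at -0.15, -0.05, -0.05, -0.01 and -0.05, and one more of ugt-50 at -0.73. dpy-14 and dpy-17 have 1 probe set each. Of the higher genes 62 had further probe sets, and for 30 of these no other probe set was 2-fold higher. Of all 69 other probe sets 33 were 2-fold higher, and so were 33 of the 44 that reached 100 on either array. Averaging all probe sets of each gene left 432 genes higher and 182 lower.

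**Figure D5:**
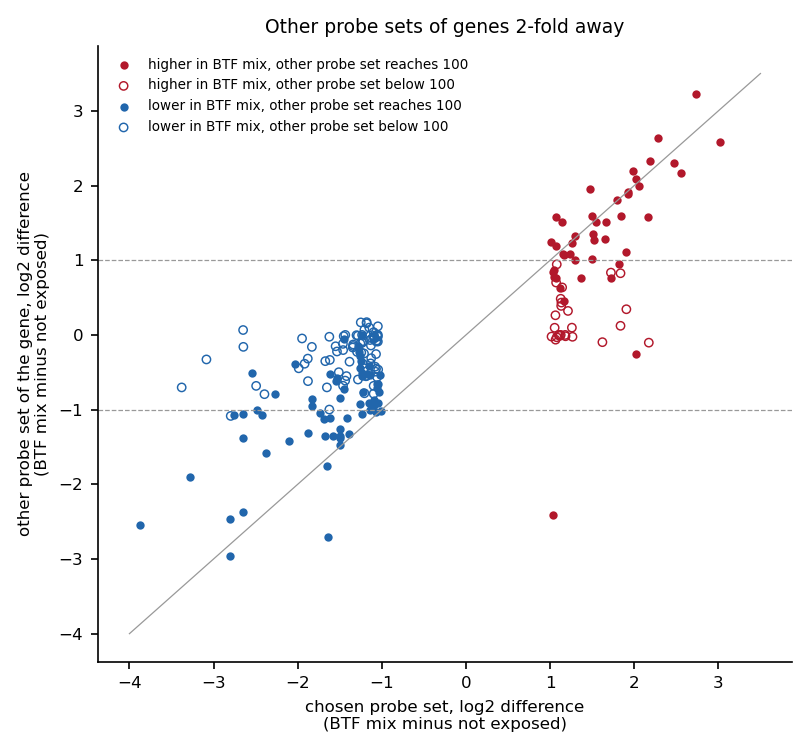
Difference on the other probe sets of a gene (vertical axis) against that on the chosen probe set (horizontal axis), BTF mix minus not exposed in log2(intensity + 16), for genes 2-fold higher (red) or lower (blue). Filled points are other probe sets that reach an intensity of 100 on either array, a cut that favours the called direction. Of these, 33 of 44 for higher genes and 30 of 63 for lower genes lie past the dashed 2-fold line. Over all other probe sets it is 33 of 69 and 31 of 140.

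Lists of FMRFamide-like peptide, neuronal, ribosomal protein, proteasome and muscle genes showed small differences. They do not cover all genes of neurons. Outside them, egl-46 (-1.64, and -2.71 on its other probe set) and unc-3 (-1.34, and -0.13 on its other) were among the genes 2-fold lower. So were unc-6 (-1.51, and -0.50 on its other), rpm-1 (-1.49, and -0.84) and syd-1 (-1.42, and -0.55). All genes of neurons past 2-fold, in either direction, were not counted. Of 25 FMRFamide-like peptide genes 22 lay below the unexposed array, with a median of -0.28 and 0 at 2-fold, and flp-10 was the lowest (143 in the mix and 295 without exposure, -0.97). The neuropeptide processing genes egl-3 and egl-21 stood at -0.64 and -0.55, and the synaptic genes unc-17 and snb-1 at -0.21 and -0.16. Of 75 cytosolic ribosomal protein genes 73 lay below the unexposed array by small amounts, with a median of -0.100. The 33 proteasome subunit genes had a median of 0.08, and neither list held a gene 2-fold away. Of 22 muscle genes 0 were 2-fold away, 15 lay above the unexposed array and 7 below it. Their median was 0.14, and -0.45 with poly-A scaling. The myosin gene unc-54 was the lowest at -0.397 and dim-1 the highest at 0.88, and 1.41 on its other probe set. With the mean of probe sets 1 muscle gene was 2-fold higher. Of all genes 4.08% were 2-fold away in either direction.

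Further lists held few members past 2-fold, and their shares are given beside the 2.66% higher and 1.43% lower of all genes. In the shorter lists 1 or 2 genes make up a large share. Of 80 hedgehog-related and patched-related genes 5 were higher (6.25%), including grd-10 (495 in the mix and 92.7 without exposure, 2.23). In the same list 1, ptr-4, was lower (1.25%). Of 34 astacin protease genes nas-20 was higher (382 and 79.5, 2.06) and hch-1 lower, a share of 2.94% each way. Histone genes had 0 of 34 higher and 2 lower (5.88%), the linker histone genes hil-7 and hil-1 (-1.03). The list of pqn and abu genes, which encode glutamine- and asparagine-rich proteins, had 2 of 58 higher (3.45%) and 4 lower (6.90%). Cuticlins had 3 of 34 lower (8.82%) and 0 higher, and 1 was lower when marked probe sets were left out. Neuropeptide-like protein genes had 2 of 58 lower (3.45%) and 1 higher (1.72%), and insulin-like peptide genes 1 of 24 lower (4.17%) and 0 higher. In the respiratory chain list cyc-2.2 was the 1 of 34 genes higher (2.94%), and the median was -0.02. Pharynx genes had 1 of 11 higher (9.09%) and 2 lower (18.2%). Of the 10 hypoxia and sulfide response genes fmo-2 was the 1 past 2-fold (a share of 10%), and of the 7 osmotic response genes 0 were.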

How the data were processed

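RNA of whole animals was measured on 5 Affymetrix arrays, 1 per group, from 300 ng of total RNA with a 3′ kit. The deposited values are linear probe set intensity values, and per the submitters' processing notes RMA, Affymetrix Expression Console 1.1 and MAS5 were used, with no role stated. If arrays were normalised to each other, a global difference in RNA amount is lost.

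Of 22625 probe sets, 20766 name a single gene in the platform annotation and 20701 matched the RefSeq table (WBcel235). Another 887 list several genes, 895 none and 77 are controls, and these stayed out. Each of 17118 genes took its probe set of highest mean. Differences are in log2(intensity + 16), and 2-fold is a fixed rule of size. Python 3.11.15, numpy 2.4.6 and pandas 2.3.3 were used, and the steps were tested on simulated data.

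Named are the 30 highest and 30 lowest genes, up to 6 members each way of each list, and members of lists of at most 12 or with a defining role. The members, 56 lists and 9 marker lists were chosen with earlier results of these data known. No replicate exists, so no test was made.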

Additional observations from a re-analysis of the deposited data

How the results depend on the processing

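The 455 higher and 244 lower genes were counted again with 1 choice changed at a time. Counts moved by over 1.5 times for higher genes with poly-A spike scaling (173), without s and x probe sets (274) and at 1.5-fold (922). For lower genes they did so with only genes from the 60th percentile of mean level (149), a pseudocount of 64 (153), poly-A scaling (1248) and at 1.5-fold (723). The 40th percentile filter, a pseudocount of 1, median centring, quantile normalization and the mean of probe sets moved neither count that far. Of the higher genes, 454 stayed 2-fold higher after quantile normalization and 430 with the mean of probe sets. Of the lower genes, 236 and 177 stayed 2-fold lower. Without s and x probe sets fewer genes are measured, and clec-78 turned to 0.16 and col-157 to -0.018, since another probe set was then used. No paired analysis was possible because each group has 1 array. The 16 added to each value keeps the dimmest genes from reaching 2-fold, so the 0 among the 3424 dimmest genes says nothing about them.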

Other observations

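Some genes that were 2-fold higher in the BTF mix neighboured each other on a chromosome. In the gene order of the RefSeq table (assembly WBcel235), counting measured genes only, 62 of the 455 higher genes (13.6%) lay in 28 runs of adjacent higher genes, and 12 of the 244 lower genes (4.92%) lay in 6 runs. Runs of higher genes, picked here after their values were seen, were cyp-35A3 with K09D9.1 and cyp-35A4, cyp-14A2 with cyp-14A3, gst-26 with gst-27, grd-3 with grd-10, lys-1 with lys-2, hsp-16.2 with hsp-16.41 and col-159 with col-160. Other runs joined unlike genes, such as alh-5 with clec-206 and sqt-1 with rmd-3. Near-identical neighbours can share probe signal, and the number of runs for genes in random order was not computed.

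The lower genes were also unevenly spread over the platform's probe set numbers, a pattern that was looked at after the values were seen. Over 24 blocks of 1000 consecutive numbers, the share of genes 2-fold lower had a median of 0.878% and ran between 0.282% and 8.43%. The block of 174000 to 174999 held the highest share, with 63 of 747 genes lower and 7 higher. What the numbers stand for was not stated, and their part in the result was not tested.

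cdh-5 was the gene with probe sets 2-fold away in opposite directions. On the chosen probe set it had 196 in the mix and 87.4 without exposure (1.03), and on the other 28.2 and 218 (-2.41). Of 887 probe sets listed for several genes, 72 were 2-fold higher (8.12%) and 6 lower, and of 895 with no gene listed 3 were higher and 2 lower.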
